A study of Mus musculus with 6 samples.

Results

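The genes described here are 37 members of the glutathione, antioxidant and NRF2 pathway, taken by symbol from 59699 counted loci in mouse adrenal glands. A locus was taken when its gene name, split at commas, held a member. Each of the 37 symbols was found at 1 locus. The glands came from female mice aged 30 weeks on a 129 sv X CD1 background, and 3 wild-type (WT) samples were set against 3 samples without Armc5, labelled Armc5(-/-) and called KO here. RNA was depleted of ribosomal RNA, made into libraries that keep strand and read from both ends. The labels do not say which part of Armc5 was deleted, whether a sample pools animals, or whether samples came from separate animals, and the p-values therefore reflect only how these 6 samples spread.

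Cells keep reactive oxygen in check with enzymes that draw electrons from glutathione, thioredoxin and NADPH. NRF2, encoded by Nfe2l2, switches on many of these genes when oxidants or electrophiles release it from KEAP1, which otherwise hands it to a cullin 3 ubiquitin ligase. ARMC5 is likewise a substrate adaptor of cullin 3. In the adrenal cortex, mitochondrial cytochrome P450 enzymes that make steroids leak electrons, and loss of NNT or of TXNRD2 causes familial glucocorticoid deficiency in humans.

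Total counts per library ran from 70547288 to 130573434. Armc5 itself had 2233 to 3263 counts in the WT libraries and 269 to 473 in the KO libraries. The defining genes of the tissue were abundant in every library, with the summed level of 8 markers of the steroid-making cortex between 24470 and 50210 CPM (counts scaled to library size with TMM factors). That sum was 50210, 28770 and 38930 in WT and 25870, 24470 and 24520 in KO. None of these 8 markers was called. Star, Cyp11a1 and the merged locus of Hsd3b1 were lower in every KO library than in any WT library, as were 14.2% of all tested loci. Their log2 fold changes were -1.10, -0.58 and -0.78. The groups overlapped for Cyp21a1, Nr5a1, Mc2r, Scarb1 and Fdx1. The sum of 8 chromaffin markers was 1887 to 2692 in WT and 3862 to 4271 in KO, and 2 of the 8 (Chga and Dbh) were called higher. KO replicate 3 carried transcripts of liver: the sum of 9 hepatocyte markers was 3429 CPM there and 32.9 to 97.6 in the other 5 libraries. In bulk RNA, fewer cells of a type and less RNA per cell cannot be told apart.

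NRF2 binds, with a small MAF protein, to the antioxidant response element, whose core is TGACNNNGC. This core was searched on both strands of RefSeq promoters (GRCm38.p6, 250 bases before to 50 after the start), which covered 30 of the 37 members. Hmox1, Gclc, Gsr, Nnt, Gsta4, Prdx6 and Sod3 had no entry. The core was present for 8 of these 30 genes (26.7%), against 3781 of 27025 genes in the whole table, although genes with several promoters have more chances to hold it. By promoter the shares were 19.0% of 42 and 12.4% of 32851. The 7 matches before the start site are shown as the upstream places in these promoters that read TGACNNNGC. Other forms of the element were not searched, so the list does not cover every possible NRF2 site. Capitals mark the core, and each line is written on the strand that reads TGACNNNGC.
Nfe2l2: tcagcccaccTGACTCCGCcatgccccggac
Prdx1: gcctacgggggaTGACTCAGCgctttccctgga
Gclm: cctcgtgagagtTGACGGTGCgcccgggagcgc
Gstm5: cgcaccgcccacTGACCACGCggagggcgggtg
Mgst1: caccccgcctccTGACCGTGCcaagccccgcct
Txnrd1: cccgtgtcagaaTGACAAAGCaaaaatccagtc
Sod1: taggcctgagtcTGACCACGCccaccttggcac

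These windows lie at chr2:75704883-75704913 (Nfe2l2, minus strand), chr4:116685454-116685486 (Prdx1, minus), chr3:122245411-122245443 (Gclm, minus), chr3:107895800-107895832 (Gstm5, plus), chr6:138140459-138140491 (Mgst1, minus), chr10:82859102-82859134 (Txnrd1, minus) and chr16:90220694-90220726 (Sod1, minus). The eighth match was in Srxn1, whose core begins at position 29 after the start. Only the Prdx1 core, TGACTCAGC, also held the AP-1 motif TGANTCA, which was found in 5 of the 30 genes (16.7%) and in 8.97% of all genes. No core was in the promoter windows of Keap1, Gpx1, Gpx3, Gpx4, Slc7a11, Nqo1, Fth1 or Ftl1. Of the genes with a core, Nfe2l2 and Prdx1 had lower values with TMM scaling in every KO library than in any WT library. Gstm5 had higher ones, and the groups overlapped for Gclm, Mgst1, Txnrd1, Sod1 and Srxn1. The 250 bases upstream of Nfe2l2 (chr2:75704664-75704913, minus strand) and Prdx1 (chr4:116685349-116685598, plus strand) follow as examples.
Nfe2l2: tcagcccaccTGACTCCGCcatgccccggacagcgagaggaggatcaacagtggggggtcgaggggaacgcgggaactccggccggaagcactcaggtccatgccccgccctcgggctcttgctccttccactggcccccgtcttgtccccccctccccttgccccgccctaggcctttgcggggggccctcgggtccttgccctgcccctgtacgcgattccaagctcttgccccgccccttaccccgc
Prdx1: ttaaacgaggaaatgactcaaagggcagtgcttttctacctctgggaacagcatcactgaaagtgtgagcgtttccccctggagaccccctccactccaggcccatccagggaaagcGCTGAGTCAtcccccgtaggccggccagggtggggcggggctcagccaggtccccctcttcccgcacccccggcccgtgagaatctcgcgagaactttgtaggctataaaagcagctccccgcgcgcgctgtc

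None of the 36 members that passed the count filter was called between KO and WT (edgeR quasi-likelihood test, Benjamini-Hochberg adjusted p under 0.05 over 21358 loci), where 1.84% of all tested loci were called, 1.41% as higher and 0.431% as lower. The smallest adjusted p values were 0.0523 for Gclc, which was higher in KO, and 0.0524 for Gpx3, which was lower. Before adjustment, 12 members had p under 0.05, against 22.2% of all tested loci. Of these, 3 had higher and 9 had lower values in KO (12.5% and 9.73% of all loci). Of the other tools, DESeq2 called 9 members, limma-voom with sample weights 4 and limma-trend on the deposited log2 CPM 1. The DESeq2 calls were Gclc, higher, and Nfe2l2, Slc7a11, Nnt, Rhoa/Gpx1 (a merged locus), Gpx3, Gpx4, Fth1 and Ftl1, lower. The background was 12.3% of all loci.

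Under the alternatives, 1 member was called with total counts alone (Gclc, where 3.15% of all loci were called), equal Rn7sk counts (Gclc, 3.33%), no filter beyond a single count (Gpx3, 0.955%), a minimum of 10 CPM in 3 libraries (Gclc, 3.09%) and limma-trend (Gclc, 4.57%). limma-voom called 4 (Nfe2l2, Gclc, Gpx3 and Gpx4, 7.04%). Leaving out WT replicate 1 gave Slc7a11 (1.74% of loci) and leaving out WT replicate 2 gave Nfe2l2 (2.95%). No member was called without WT replicate 3 (0.0886%), KO replicate 1 (0.0672%), KO replicate 2 (0.099%) or KO replicate 3 (0.171%), nor without both WT replicate 1 and KO replicate 3 (0.0754%). The same held with RLE size factors (1.78%), unnamed loci kept (1.58%) and the replicate number as a block (0.0234%).

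The log2 fold changes of the 36 members had a median of -0.21, with 25 negative and 11 positive, and the median over all tested loci was -0.0063. The 2 groups of libraries did not overlap in CPM for 12 members, against 30.5% of all tested loci, 8 of them lower and 4 higher in KO, where 14.2% and 16.3% of all tested loci showed this. With total counts alone the split was 15 negative and 21 positive, and with equal Rn7sk counts it was 18 and 18. The ferritin and glutathione peroxidase members had negative estimates and 5 of 7 tested glutathione transferases had positive ones under all 3 scalings. The estimates of Cat and the superoxide dismutases were negative with TMM, but all 4 turned positive with total counts alone, and those of Cat and Sod3 also with equal Rn7sk counts. The sum of cortex markers given above was lower in every KO library than in any WT library. So were some marker sums of other cells, among them the erythroid and endothelial ones. Those of macrophages, adipocytes and capsule overlapped between the groups, and that of chromaffin cells was higher in KO. The sum of 3 erythroid markers was 855, 508 and 521 CPM in WT and 273, 137 and 384 in KO, and that of 6 endothelial markers was 628, 705 and 718 in WT and 548, 445 and 549 in KO. None of these 9 genes was called or at 0. Their part in the lower values of members, and that of the cortex markers, was not tested. Gsta1, a glutathione transferase, did not pass the filter, with no counts in any WT library and 6, 3 and 8 in KO. The near-identical gene Gsta2 may share its reads.

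**Figure D1:**
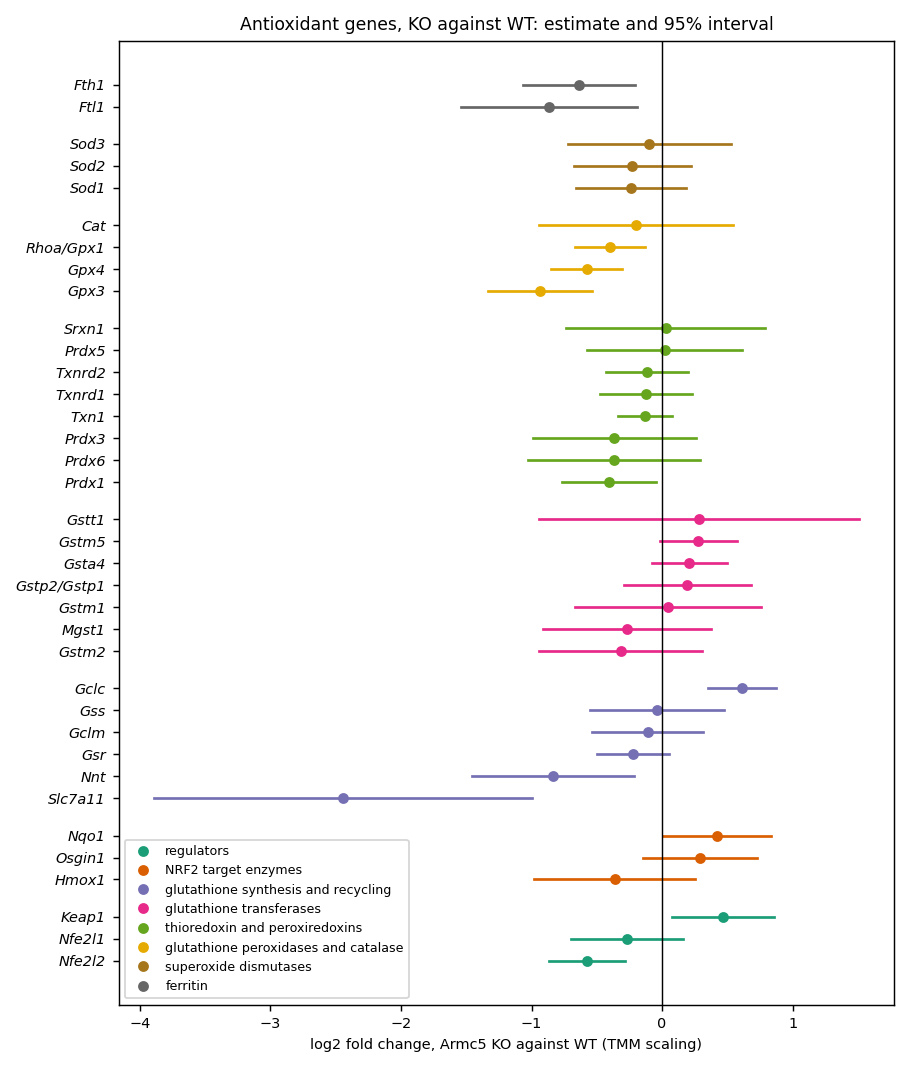
Log2 fold change of KO against WT (x axis, TMM scaling) for the 36 tested members, grouped and coloured by role, with points for the estimate and bars for its 95% interval from the edgeR fit. Gclc has the highest estimate (0.61) and Slc7a11 the lowest (-2.45), and none of the 36 passed the adjusted threshold.

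Among the regulators, Nfe2l2 had lower and Keap1 higher values in every KO library. Nfe2l2, the NRF2 transcription factor (GRCm38 chromosome 2, 75675513 to 75704641), was at 187, 159 and 208 CPM in WT and 119, 120 and 132 in KO. The KO values lay close together and below all WT values. The means were 184 ± 24.7 and 124 ± 7.08 CPM (SD, n = 3 each), and the log2 fold change was -0.58 (SE 0.12, edgeR adjusted p = 0.0672). Nfe2l2 was called lower by DESeq2 (adjusted p = 0.0019), by limma-voom with sample weights (0.0272) and without WT replicate 2 (0.0398), and not in the other alternatives (up to 0.246).

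Keap1, the adaptor that brings NRF2 to cullin 3 (chromosome 9, 21229712 to 21239361), was at 32.4, 26.5 and 23.8 CPM in WT and 44.8, 34.4 and 34.9 in KO. The gap between the groups was narrow, from 32.4 in WT replicate 1 to 34.4 in KO replicate 2. Its log2 fold change was 0.46 (SE 0.16, 95% interval 0.075 to 0.85, edgeR adjusted p = 0.172). The annotated antisense gene Gm16754 overlaps Keap1, and whether counting used strand is not given in the sources used here.

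Nfe2l1, which encodes NRF1, a relative of NRF2 known for control of proteasome genes, was at 443, 302 and 297 CPM in WT and 312, 285 and 266 in KO. WT replicate 1 stood above the rest and the groups overlapped. The log2 fold change was -0.27 (SE 0.18, edgeR adjusted p = 0.415), and -0.058 without WT replicate 1.

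**Figure D2:**
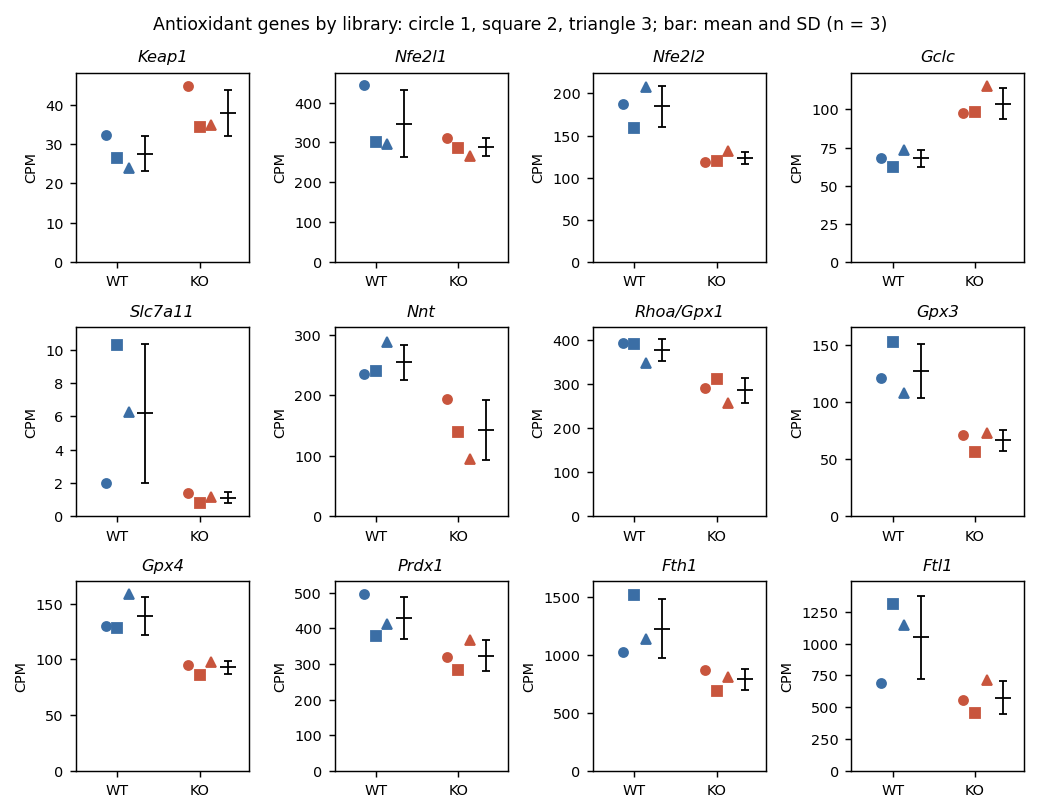
CPM (y axis, TMM scaling, starting at 0) of 12 members in each WT and KO library, with the mean and SD of each group beside the points. Values of Gclc and Keap1 are higher in all KO libraries, those of Ftl1 and Nfe2l1 overlap between the groups, and the other 8 are lower in all KO libraries.

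The classical NRF2 targets did not differ in a single direction. Nqo1, a quinone reductase, was at 4.60, 4.41 and 4.56 CPM in WT and 5.11, 5.82 and 7.24 in KO, so all KO values were higher. Its log2 fold change was 0.42 (SE 0.17, edgeR adjusted p = 0.219). Osgin1, an oxidative stress-induced growth inhibitor, was at 25.9, 27.5 and 30.8 CPM in WT and 37.4, 25.5 and 39.9 in KO. Replicates 1 and 3 of KO were above WT and replicate 2 was the lowest library of all (log2 fold change 0.29, SE 0.18, edgeR adjusted p = 0.392). Hmox1, heme oxygenase 1, which breaks down heme and is abundant in macrophages that clear red cells, was at 66.3, 127 and 80.7 CPM in WT and 65.2, 63.4 and 84.6 in KO. WT replicate 2 was the high library and the other 5 overlapped (log2 fold change -0.36, SE 0.26, edgeR adjusted p = 0.444).

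Of the 6 genes of glutathione synthesis and recycling, Gclc had higher values with TMM scaling in every KO library and Slc7a11 and Nnt lower ones. None of the 6 was called by edgeR. Gclc, the catalytic subunit of glutamate-cysteine ligase (chromosome 9, 77754535 to 77825007), was at 68.4, 61.99 and 73.2 CPM in WT and 97.5, 98.0 and 115 in KO. All KO libraries were above all WT libraries with a gap wider than the spread within either group. The means were 67.9 ± 5.63 and 104 ± 10.3 CPM (SD, n = 3 each), 1.53-fold (log2 fold change 0.61, SE 0.11, 95% interval 0.35 to 0.87, edgeR adjusted p = 0.0523). In 6 of 17 alternatives Gclc was called higher, with adjusted p from 0.000333 (DESeq2) to 0.177 (without KO replicate 1) over all of them.

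Gclm, the modifier subunit of the same ligase, whose locus also holds the pseudogene Gm6061, was at 62.4, 54.0 and 72.4 CPM in WT and 56.9, 47.4 and 70.6 in KO. The groups overlapped along most of their range (log2 fold change -0.11, SE 0.18, edgeR adjusted p = 0.754). Gss, glutathione synthetase, overlapped as well (-0.039, SE 0.21, adjusted p = 0.936), as did Gsr, the reductase that recycles oxidised glutathione (-0.22, SE 0.11, adjusted p = 0.303).

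Slc7a11, the cystine transporter xCT (chromosome 3, 49892526 to 50443788), had few counts, 200, 1328 and 503 in WT and 158, 60 and 152 in KO. These were 1.97, 10.3 and 6.27 CPM in WT and 1.43, 0.787 and 1.17 in KO. WT replicates 2 and 3 were high, while WT replicate 1 was close to the KO libraries. The log2 fold change was -2.45 (SE 0.60, 95% interval -3.89 to -0.998, edgeR adjusted p = 0.0918). Called lower by DESeq2 (adjusted p = 0.000336) and without WT replicate 1 (0.0363), it did not pass in the other alternatives that tested it (up to 0.247).

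Macrophages also express this transporter, and the sum of 6 macrophage markers was 138, 368 and 254 CPM in WT and 132, 169 and 147 in KO. None of the 6 was called or at 0, and the groups overlapped for 5 of them. Cd68 varied most, with 16.1, 169 and 79.4 CPM in WT and 14.6, 21.0 and 17.0 in KO. From high to low, the WT order of replicates 2, 3 and 1 was the same in Cd68, Csf1r, C1qa and Adgre1. C1qb was highest in WT replicate 3 and Mrc1 in WT replicate 1, and Adgre1 lay between 9.02 and 14.04 CPM in all libraries. The part of these cells in the Slc7a11 values was not tested.

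Nnt, the transhydrogenase of the inner mitochondrial membrane that makes NADPH for glutathione and thioredoxin reduction (chromosome 13, 119335448 to 119430238), was at 235, 240 and 288 CPM in WT and 194, 139 and 94.7 in KO. The KO libraries were all lower and differed among themselves more than the WT libraries did. The means were 254 ± 28.9 and 142 ± 49.5 CPM (SD, n = 3 each; log2 fold change -0.84, SE 0.26, edgeR adjusted p = 0.138), and DESeq2 called the gene lower (adjusted p = 0.0256). C57BL/6J mice, the strain of the reference genome, carry a deletion of several Nnt exons, and the Nnt genotype of these samples is not given in the labels.

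The tested glutathione transferases, which join glutathione to electrophiles, had log2 fold changes between -0.32 and 0.28, and none had an unadjusted p under 0.05. Gstm5 was the only 1 of the 7 without overlap, where 30.5% of all tested loci had none (16.3% with KO above). It was at 16.9, 17.2 and 14.2 CPM in WT and 20.3, 20.6 and 17.7 in KO (log2 fold change 0.28, SE 0.12, edgeR adjusted p = 0.242). Gsta4, which acts on products of lipid peroxidation, was at 29.9, 26.6 and 32.4 CPM in WT and 31.4, 33.2 and 38.2 in KO (0.21, SE 0.12, adjusted p = 0.354). Both had small and fairly even differences.

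Mgst1, a membrane-bound transferase and the most abundant of the family per library, was at 707, 327 and 563 CPM in WT and 423, 437 and 466 in KO. The KO values lay within the WT range (log2 fold change -0.27, SE 0.27, edgeR adjusted p = 0.592). WT replicates 1, 3 and 2 had the same order, from high to low, in Mgst1 and in the sum of cortex markers, and the part of that sum in the Mgst1 values was not tested.

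Gstt1, of the theta class, had 1 low library, WT replicate 3, at 4.25 CPM, while the other 5 lay between 15.5 and 20.3. Gstm1, an abundant mu-class enzyme, was lowest in WT replicate 1 (164 CPM) and between 241 and 349 in the others. The merged locus Gstp2/Gstp1 had a log2 fold change of 0.19 (edgeR adjusted p = 0.608), which was -0.0085 without KO replicate 3, the library with liver transcripts. Members of the mu class are close in sequence, so that their reads may be split between them.

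In the thioredoxin system, which reduces protein disulfides and peroxiredoxins, 6 of 8 members had negative estimates with TMM scaling, and 3 of 8 with total counts alone or with equal Rn7sk counts. Prdx1, an abundant cytosolic peroxiredoxin and an NRF2 target (its promoter is printed above), was at 496, 380 and 412 CPM in WT and 321, 283 and 368 in KO. The highest KO library, replicate 3, came near the lowest WT library, replicate 2. Its log2 fold change was -0.41 (SE 0.15, 95% interval -0.77 to -0.050, edgeR adjusted p = 0.185).

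Txn1, thioredoxin itself, was at 68.5, 65.3 and 64.2 CPM in WT and 57.5, 57.8 and 65.1 in KO. The last of these lay within the WT range (log2 fold change -0.13, SE 0.086, edgeR adjusted p = 0.403, with the sign reversed under total counts alone, 0.095). Prdx3, the mitochondrial peroxiredoxin, and Prdx6, which reduces phospholipid peroxides, were highest in WT replicate 1, at 414 and 320 CPM. Their log2 fold changes of -0.37 and -0.37 became -0.049 and 0.014 without that library. The thioredoxin reductases Txnrd1 and Txnrd2 had log2 fold changes of -0.12 and -0.12 (adjusted p = 0.657 and 0.639), and Prdx5 and Srxn1, which repairs overoxidised peroxiredoxins, of 0.022 and 0.027 (0.970 and 0.971).

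The glutathione peroxidase members, selenoproteins that reduce peroxides, had lower values in every KO library than in any WT library with TMM scaling. This held at 3 of 3 loci, against 14.2% of all tested loci, but 1 of the 3 is the merged locus Rhoa/Gpx1. Of the tested glutathione peroxidases in the wider list described below, Gpx8 was also lower in every KO library and Gpx7 overlapped between the groups. The groups overlapped for Rhoa/Gpx1 with total counts alone and for Gpx4 with equal Rn7sk counts. Gpx3, the secreted plasma form (chromosome 11, 54902453 to 54910377), was at 121, 153 and 108 CPM in WT and 70.8, 56.3 and 72.7 in KO. The gap from 108 to 72.7 was wider than the range of the KO libraries but narrower than that of the WT libraries. The means of 127 ± 23.3 and 66.6 ± 8.99 CPM (SD, n = 3 each) differed 1.91-fold (log2 fold change -0.93, SE 0.17, 95% interval -1.33 to -0.53, edgeR adjusted p = 0.0524).

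Gpx4, which protects membranes from lipid peroxides (chromosome 10, 80047166 to 80056439), was at 130, 128 and 158 CPM in WT and 94.5, 86.3 and 97.7 in KO. The KO libraries again lay close together below WT (log2 fold change -0.58, SE 0.11, edgeR adjusted p = 0.0604). Over 17 alternatives Gpx3 was called lower in 3 (adjusted p from 0.000124 to 0.185) and Gpx4 in 2 (0.000897 to 0.274). Gpx1, the cytosolic form, is counted in 1 merged locus with Rhoa, a small GTPase (chromosome 9, 108306129 to 108340343), so its own level cannot be read. That locus was at 391, 389 and 347 CPM in WT and 290, 310 and 256 in KO (log2 fold change -0.40, SE 0.11, edgeR adjusted p = 0.116).

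Cat, the peroxisomal catalase, was at 292, 255 and 341 CPM in WT and 172, 214 and 388 in KO. The third KO replicate was the highest library of all and KO replicates 1 and 2 were the lowest. On the log2 scale the difference was -0.20 (SE 0.31, edgeR adjusted p = 0.745) and became -0.62 without KO replicate 3 (adjusted p = 0.194). That library carried the liver transcripts, and liver is rich in catalase, but their part in the value was not tested.

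The 3 superoxide dismutases overlapped between the groups. Sod1, the cytosolic enzyme, was at 250, 160 and 220 CPM in WT and 162, 189 and 183 in KO (log2 fold change -0.24, SE 0.17, edgeR adjusted p = 0.458). Sod2, the mitochondrial enzyme, was at 218, 139 and 160 CPM in WT and 162, 128 and 150 in KO (-0.23, SE 0.19, adjusted p = 0.505). Sod3, the extracellular enzyme, was at 534, 291 and 316 CPM in WT and 418, 352 and 298 in KO (-0.097, SE 0.26, adjusted p = 0.863). WT replicate 1 was the highest library for each of the 3, and with total counts alone the estimates turned to 0.0064, 0.012 and 0.15.

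Ferritin, the iron store whose subunit genes NRF2 can activate, had lower mean levels in KO. Fth1, the heavy subunit with ferroxidase activity, was at 1025, 1514 and 1140 CPM in WT and 866, 692 and 807 in KO. All KO values were below all WT values (log2 fold change -0.64, SE 0.18, 95% interval -1.07 to -0.21, edgeR adjusted p = 0.117). Ftl1, the light subunit, was at 688, 1311 and 1146 CPM in WT and 557, 453 and 715 in KO, the last of these above WT replicate 1 (-0.87, SE 0.28, adjusted p = 0.151). DESeq2 called both lower (adjusted p = 0.0162 and 0.0296). WT replicate 2 was the highest library for both, as it was for Hmox1, Slc7a11 and the macrophage sum. The part of the macrophage, erythroid and endothelial sums given above in the ferritin values was not tested. Ferritin genes have processed pseudogenes that can take some of their reads.

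Levels of different genes were compared per kilobase, as the mean CPM of a group divided by the deposited length of the locus. The highest levels were those of Ftl1, at 659 CPM per kilobase in WT and 361 in KO, and Fth1, at 349 and 224. Mgst1 followed at 264 and 219 CPM per kilobase. Gstm1 was at 183 and 189 and Prdx3 at 194 and 150.3 CPM per kilobase, so that their order differed between WT and KO. At the low end of the members stood Nqo1 at 2.91 and 3.90 CPM per kilobase, then Slc7a11 at 0.44 and 0.080, and Gsta1 with no counts in WT and 0.054 CPM per kilobase in KO. Among the regulators Keap1 was lowest at 5.85 and 8.07 CPM per kilobase. Nfe2l2 was at 48.6 and 32.6 and Nfe2l1 at 45.5 and 37.7, again in a different order in WT and KO. That order depends on the deposited length of Nfe2l1, 7635 bases against 5441 in annotated exons. Per kilobase of annotated exons, the mean over all libraries was 58.35 CPM for Nfe2l1 and 40.57 for Nfe2l2.

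These lengths depend on how the loci were assembled. Of the 37 loci, 22 had the start and end of GENCODE M21 and 11 ran more than 10000 bases beyond the annotated gene. For Prdx3 and Sod1 the deposited span was 201124 and 249043 bases, against 10506 and 5576 annotated, and it crossed Eif3a and Sfxn4, or Hunk, on the same strand. Their deposited transcribed lengths were 1.04 and 1.01 times the annotated exons. For Srxn1 and the Rhoa/Gpx1 locus the ratio was 2.08 and 6.65. For Txnrd1, which ran 124229 bases beyond the annotated gene and into Hcfc2 on the same strand, it was 1.8. The ratio was 1.88 for Osgin1, 1.4 for Nfe2l1, 1.3 for Nnt and 1.23 for Txn1. These ran 8190, 58359, 21241 and 55272 bases beyond the annotated gene. Counts of Srxn1, Rhoa/Gpx1, Txnrd1, Osgin1, Nfe2l1, Nnt and Txn1 may include reads from outside the annotated gene. For Hmox1 the ratio was 2.32 within the annotated start and end.

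Across the libraries, WT replicate 1 was the highest for 13 of the 36 members and KO replicate 2 the lowest for 14. Over all tested loci those libraries were highest for 22.6% and lowest for 18.6%. KO replicate 3 was the highest library for 9 members, and for 13.1% of all loci. The summed level of the 37 loci was 7678, 7459 and 7698 CPM in WT and 5844, 5357 and 6354 in KO, a sum in which the ferritin genes have the largest part. As a share of the counts of named loci, without TMM scaling, they took 0.662%, 0.75% and 0.699% in WT and 0.628%, 0.591% and 0.681% in KO, and here the groups overlapped.

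**Figure D3:**
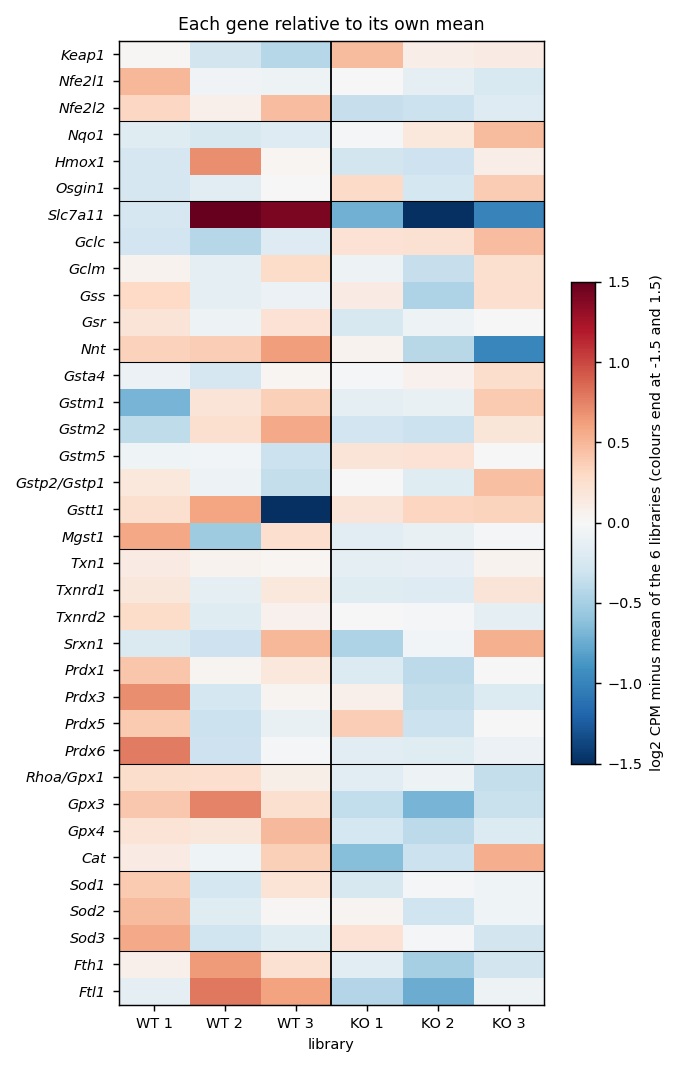
Log2 CPM (TMM scaling) of each tested member minus its own mean over the 6 libraries, shown as colour, with genes in rows by role and libraries in columns. Nfe2l2, Gpx3 and Gpx4 are below their mean in all KO libraries, WT replicate 1 is high for Prdx3, Prdx6 and Sod3, and Slc7a11 is high in WT replicates 2 and 3.

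The scaling of the libraries set the sign of many small differences. With total counts alone the median log2 fold change of all tested loci was 0.22, and with equal counts of the small RNA Rn7sk it was 0.19. The members' medians then were 0.024 and 0.011, which relative to all loci is -0.20 and -0.18. Calls over all loci were 301 higher and 92 lower with TMM scaling, 637 and 35 with total counts alone and 669 and 42 with equal Rn7sk counts.

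Gclc passed the threshold with total counts alone at an edgeR adjusted p of 0.0204 (log2 fold change 0.84), and also when Rn7sk was set equal (0.82, adjusted p = 0.0449). The groups did not overlap for Nfe2l2, Slc7a11 and Gpx3 (lower in KO) or for Keap1, Gclc, Nqo1 and Gstm5 (higher) under any of the 3 scalings. With total counts alone 7 members were above and 4 below WT, where 29.8% and 3.09% of all tested loci were. With equal Rn7sk counts 5 were above and 4 below, against 24.6% and 2.74% of loci.

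**Figure D4:**
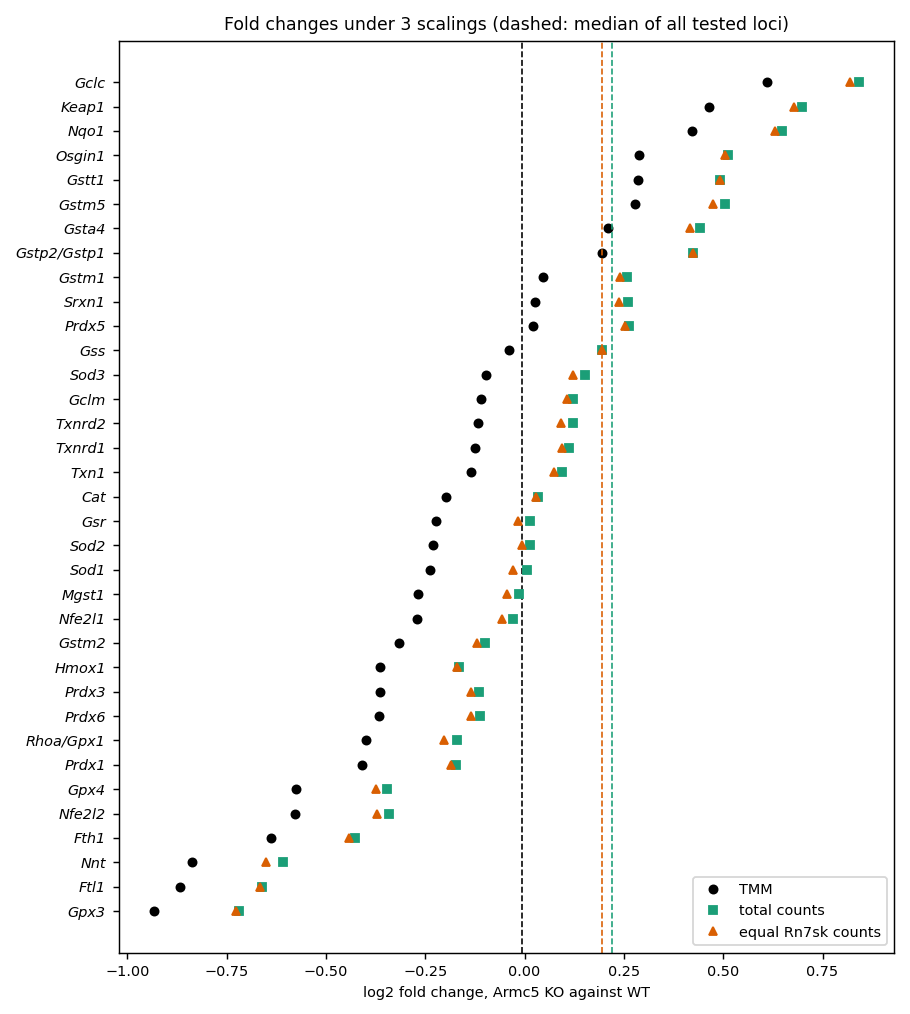
Log2 fold change of KO against WT (x axis) for 35 members under TMM scaling, total counts alone and equal Rn7sk counts, with a dashed line at the median of all tested loci for each; Slc7a11, near -2.45, lies outside the plotted range. Points of the latter scalings sit to the right of the TMM points by about the shift of all loci, and those of Gclc, Keap1 and Nqo1 are above 0 while those of Gpx3, Ftl1, Nnt, Fth1, Nfe2l2 and Gpx4 are below 0 under all 3.

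A wider list of 90 further genes of the same pathways held 81 tested loci apart from the members, and 1 was called, no larger a share than the 1.84% of all tested loci. Sesn3, sestrin 3, a stress-induced protein that restrains mTORC1 and is activated by FOXO factors, rose from 42.8, 30.2 and 37.2 CPM in WT to 220, 135 and 198 in KO. The lowest KO library lay far above the highest WT library. The means were 36.7 ± 6.29 and 184 ± 44.2 CPM (SD, n = 3 each), 5.02-fold (log2 fold change 2.33, SE 0.22, edgeR adjusted p = 0.0161). Sesn3 was called in 13 of 17 alternatives but lost the call when WT replicate 3 (adjusted p = 0.0929), KO replicate 1 (0.0823) or KO replicate 3 (0.0595) was left out, and when WT replicate 1 and KO replicate 3 both were (0.0909).

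The small MAF proteins, the partners with which NRF2 binds DNA, had lower CPM with TMM scaling in every KO library for all 3 genes. This group was singled out after its values were seen from a list in which 19 of 81 loci were below WT without overlap, against 14.2% of all tested loci. Maff was at 18.3, 9.16 and 17.7 CPM in WT and 2.92, 5.29 and 3.82 in KO (log2 fold change -1.91, SE 0.34, edgeR adjusted p = 0.0532). Mafk was at 32.4, 24.3 and 45.5 CPM in WT and 14.3, 13.3 and 15.6 in KO (-1.25, SE 0.23, adjusted p = 0.0564). Mafg, counted in 1 locus with the deacetylase gene Sirt7, was at 116, 111 and 113 CPM in WT and 94.3, 91.1 and 93.8 in KO (-0.28, SE 0.071, adjusted p = 0.0957). None of the 3 was called by edgeR, and DESeq2 gave adjusted p of 2.78e-06 for Maff, 4.78e-05 for Mafk and 0.00733 for Mafg. Of the alternatives that tested them, 7 of 16 called Maff and 4 of 17 called Mafk.

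The element core was also present in the promoters of these 3 genes, at position -112 of Maff, -13 of Mafk and -222 of Mafg. It was in 18 of 79 genes of the wider list with a promoter (22.8%). The Maff and Mafk windows are shown for comparison with those of the members, on the strand that reads TGACNNNGC (chr15:79346497-79346529, plus, and chr5:139791511-139791543, minus).
Maff: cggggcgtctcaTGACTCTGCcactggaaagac
Mafk: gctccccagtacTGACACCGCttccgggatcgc

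**Figure D5:**
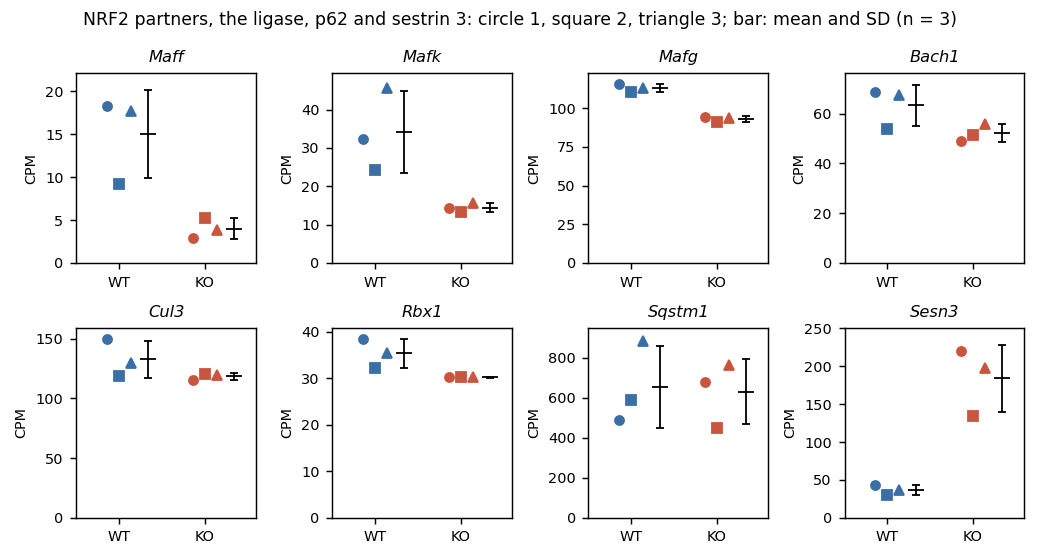
CPM (y axis, TMM scaling, starting at 0) of 3 small MAF genes (Mafg with Sirt7), the repressor Bach1, the ligase genes Cul3 and Rbx1, Sqstm1 and Sesn3 in each library, with the mean and SD of each group beside the points. Sesn3 is the 1 gene of the 8 that passed the test, and Maff, Mafk, Mafg and Rbx1 are lower in all KO libraries.

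Bach1, which represses NRF2 targets, Cul3 and Rbx1, the ligase core, and Sqstm1, the p62 protein that sequesters KEAP1, had log2 fold changes of -0.28, -0.16, -0.23 and -0.050 (edgeR adjusted p from 0.227 to 0.938). All 9 genes of NADPH supply had negative estimates with TMM scaling (6 with total counts alone or equal Rn7sk counts) and a median of -0.28, among them Me1, the malic enzyme, at -0.57 (adjusted p = 0.277), and none was called. Of the 81 loci 29 were positive and 52 negative with a median of -0.18, and 20 had an unadjusted p under 0.05, against 22.2% of all tested loci. The transporter gene Abcc2, of the canalicular membrane of liver cells, did not pass the filter, with 4103 counts in KO replicate 3 and at most 6 in any other library.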

How the data were processed

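Adrenal RNA of 3 WT and 3 KO samples was analysed from 1 table. The deposited raw counts per locus, per the file headers not normalized, are whole numbers. Log2 CPM values deposited by the authors entered only the limma-trend alternative. The submitters' processing notes name STAR, StringTie, edgeR, Trimmomatic and Picard, and the genome GRCm38. Versions, the counter and its strand setting were not given in those notes. Locus lengths, deposited by the authors, entered only levels per kilobase.

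Loci without a gene name (6596 of 59699) took 1.39% to 2.04% of the counts and were left out. Loci were kept by filterByExpr with the groups given, counts were scaled by TMM and tested two-sided with edgeR 4.0.16 (glmQLFit, robust, and glmQLFTest, R 4.3.3), with Benjamini-Hochberg adjustment over 21358 loci and a threshold of 0.05. The SE is the log2 fold change divided by the square root of F, and intervals are at 95%. Alternatives used DESeq2 1.42.0 and limma 3.58.1. Values in every library are given for the 3 regulators, and in each role group for the 2 members with the smallest p and the one with the highest mean CPM, with further members added after their values were seen. Of the wider list, called genes are named by rule and others were chosen after their values were seen. The members and lists were chosen with earlier results of these data known. Counts in every library are given for the members with the fewest, Slc7a11 and Gsta1.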

Additional observations from a re-analysis of the deposited data

How the results depend on the processing

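The main count was 0 members and 1 other pathway gene called. Members called were 1 with a minimum of 10 CPM, without a filter, with limma-trend, with total counts alone or with Rn7sk set equal, 4 with limma-voom and 9 with DESeq2. Other pathway genes called were 3 with limma-trend, without a filter, with Rn7sk set equal or with total counts alone. They were 4 of 81 with limma-voom, 11 of 81 with DESeq2 and 0 without both WT replicate 1 and KO replicate 3. Of all tested loci, 12.3% were called with DESeq2, 7.04% with limma-voom, 4.57% with limma-trend and 3.33% with Rn7sk set equal. The share was 3.15% with total counts alone, 3.09% with a minimum of 10 CPM, 0.955% without a filter and 0.0754% without both libraries. Leaving out 1 library gave 0 to 1 members and 0 to 4 other genes. The cause of these differences was not tested. When 10 CPM is required, fewer loci share the adjustment, and the estimates changed as well. The log2 fold change of Keap1 was then 0.538 against 0.464, and that of Nfe2l2 -0.502 against -0.577. RLE size factors and keeping unnamed loci gave the main counts. Over all loci, calls ranged from 15 to 644 when 1 library was left out, against 393. For the 23 genes taken by the rule, 350 of 389 values under the alternatives kept both sign and side of the threshold.

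Signs reversed for 5 of these genes, and the cause was not tested. Mgst1 was at 0.025 with limma-trend. Txn1 was at 0.095 with total counts, 0.074 with equal Rn7sk counts and 0.089 with limma-trend. Sod1 was at 0.0064 and 0.0078 and Sod2 at 0.012 and 0.014, with total counts and limma-trend. Sod3 was at 0.15 with total counts, 0.12 with equal Rn7sk counts, 0.17 with limma-trend, 0.077 with limma-voom, and 0.34 without both WT replicate 1 and KO replicate 3. When 1 library was left out it ran from -0.24 to 0.23, and was positive without WT replicate 1 (0.23) or KO replicate 3 (0.016).

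With the replicate number as a block, 0 members and 1 other pathway gene were called, and 5 of all loci. Same-numbered libraries did not deviate together (correlations of deviations from the group means of -0.017, 0.0069 and -0.12), so the numbers were not taken to pair the samples. Gsta1, at 0 to 8 counts, did not pass the filter. For Slc7a11, at 60 to 1328 counts, the WT libraries had an SD of 4.15 on a mean of 6.17 CPM.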
